A study of Mus musculus with 12 samples.

Results

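The genes described here code for the enzymes that build and sulfate glycosaminoglycans, the long sugar chains of the extracellular matrix. They were taken by symbol, as the protein-coding genes whose mouse symbol starts with Chst, Chsy, Chpf, Csgalnact, Xylt, B3gat, Hs2st, Hs3st, Hs6st, Ndst, Papss or Extl or is Ext1, Ext2, Glce, Dse, Dsel, Ust, Has1, Has2 or Has3. Of 54146 genes counted, 54 had such a symbol, and 50 of them had at least 10 counts in at least 3 of 12 libraries. The other 4 were Chst13 (0 to 1 counts per library), Chst4 (0 to 2), Chst7 (0 to 6) and Has2 (1 to 13, with 2 libraries at 10 or more), and they were not described further.

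RNA-seq counts came from whole retina of 12 mice, 1 library per mouse, in 4 conditions of 3 mice each. The cKO mice carried Crx-CreERT2, in which the Crx promoter drives a tamoxifen-inducible Cre recombinase in photoreceptors (PRs), and Otx2 flox/flox, and were on a 129/SV background. Tamoxifen was given at P30, and retinas were taken 2 d later (P32, mice 4 to 6), 4 d later (P34, mice 7 to 9) and 8 d later (P38, mice 10 to 12). The P30 group (mice 1 to 3), labelled control with the source Control_Crx and no further genotype, was taken at 0 d. Each library came from a separate mouse, so p-values measure the spread between mice. Where the cKO mice were taken as one group, that spread also held differences between P32, P34 and P38. No untreated mice of P32, P34 or P38 were analysed here, so age, tamoxifen and the deletion changed together and cannot be told apart. Cre removed a single coding exon of Otx2, and the count over the whole gene is not a check of it: Otx2 ranged from 293 to 328 CPM (counts divided by library total and scaled between libraries by TMM) at P30 and from 307 to 377 CPM in the 9 cKO mice. The RNA of a whole retina mixes all its cells, so that fewer cells of a type and less RNA per cell cannot be told apart.

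Most glycosaminoglycans are made on a core protein. Xylosyltransferases and the enzymes after them lay down a short linker sugar, on which either a chondroitin chain or a heparan chain is polymerised. Epimerases and sulfotransferases then modify the chain, with sulfate taken from PAPS, the activated sulfate that the PAPS synthases Papss1 and Papss2 make. Keratan sulfate grows on other linkers, and hyaluronan is made at the plasma membrane with neither core protein nor sulfate. In the retina these chains are parts of the matrix around PR outer segments, of basement membranes and of the nets around neurons. The name rule also takes in enzymes whose main products are other sulfated or glucuronylated sugars, such as B3gat1, B3gat2 and Chst10 of the HNK-1 epitope and Chst8 and Chst9, which act on glycoprotein sugars.

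In 7 comparisons between conditions, only Papss2 and Dse passed the threshold (in edgeR's test, an absolute log2 fold change of 0.5 or more together with an adjusted p no larger than 0.05), both with lower levels after tamoxifen. Their promoter windows are shown here because the deleted factor, OTX2, is known to bind the core TAATCC. The windows run from 250 bases before to 50 bases after the start site, as given by RefSeq on GRCm38.p6, and 39 of the 50 genes had at least 1 window. Capitals mark TAATCC or its reverse complement GGATTA, and the GC box GGGCGG or its reverse complement CCGCCC. The window of Papss1, the paralog of Papss2, is set beside them, as is that of Ndst3, the only 1 of the 39 genes with a TAATCC core. Papss2, Papss1 and Ndst3 have 2 windows each and Dse has 1. The first window of Papss2 lies at chr19:32595465-32595764 (plus strand), the first of Papss1 at chr3:131564518-131564817 (plus strand), that of Dse at chr10:34207186-34207485 (minus strand) and the second window of Ndst3 at chr3:123619401-123619700 (minus strand). The second windows of Papss2 and Papss1, not shown, held 0 TAATCC cores and 0 GC boxes, with 44.3% and 47.3% of G and C, and the first window of Ndst3 held 0 of both, with 43% of G and C.
Papss2: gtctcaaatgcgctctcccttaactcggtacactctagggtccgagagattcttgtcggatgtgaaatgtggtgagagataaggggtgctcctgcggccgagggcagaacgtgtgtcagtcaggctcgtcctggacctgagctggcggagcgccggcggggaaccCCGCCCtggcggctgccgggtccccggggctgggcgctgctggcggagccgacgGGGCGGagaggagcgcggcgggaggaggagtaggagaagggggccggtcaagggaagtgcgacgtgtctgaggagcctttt
Papss1: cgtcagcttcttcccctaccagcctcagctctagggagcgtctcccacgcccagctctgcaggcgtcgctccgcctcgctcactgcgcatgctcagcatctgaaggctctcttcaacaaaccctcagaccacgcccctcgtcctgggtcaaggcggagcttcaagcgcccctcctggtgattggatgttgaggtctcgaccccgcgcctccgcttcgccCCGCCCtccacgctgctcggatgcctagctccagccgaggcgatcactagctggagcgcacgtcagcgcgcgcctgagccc
Dse: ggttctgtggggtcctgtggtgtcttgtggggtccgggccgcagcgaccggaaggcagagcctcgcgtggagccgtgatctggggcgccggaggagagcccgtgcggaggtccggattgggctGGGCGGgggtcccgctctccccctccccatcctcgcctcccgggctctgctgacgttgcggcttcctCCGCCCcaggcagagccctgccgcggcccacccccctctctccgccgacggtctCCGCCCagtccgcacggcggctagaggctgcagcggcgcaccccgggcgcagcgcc
Ndst3: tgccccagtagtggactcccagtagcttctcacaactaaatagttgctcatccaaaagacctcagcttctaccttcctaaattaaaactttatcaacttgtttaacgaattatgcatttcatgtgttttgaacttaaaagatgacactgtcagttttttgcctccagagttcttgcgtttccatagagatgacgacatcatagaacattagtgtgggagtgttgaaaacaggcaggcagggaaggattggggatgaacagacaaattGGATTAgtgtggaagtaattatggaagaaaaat
The TAATCC core stood in 0 of the shown windows of Papss2, Papss1 and Dse. Among all 32851 windows of the table, 7.06% held it, and 8.14% of the 27025 genes with a window had it in at least 1, against 2.56% of the 39 genes described here. The GC box was counted 2 times in the Papss2 window, 1 time in that of Papss1 and 3 times in that of Dse. It occurred in at least 1 window of 28 of the 39 genes (71.8%) and of 38.2% of all genes with a window. The base composition differed as well, with a median GC content of 65.3% over the 39 genes and 52.8% over all genes. The palindromic E box CACGTG, counted once for both strands, was present for 5 of the 39 genes (Chst14, Chsy1, Ext2, Extl2 and Hs3st3a1), a share of 12.8% against 8.09% of all genes. These matches describe letters in a window of 300 bases and show nothing about binding.

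The libraries held 29701483 to 60145034 counts on genes. All 3 P30 mice had high Xist and almost no Ddx3y counts and were taken as female, whereas 5 of the 9 cKO mice (P32 mouse 4, P34 mice 7 and 8, P38 mice 10 and 11) had the opposite pattern, so sex was unbalanced between P30 and cKO. Markers of retinal cells were detected in every library, and 11 PR markers summed to 57523 to 104754 CPM. Marker sums of tissue around the retina varied. The 10 markers of the retinal pigment epithelium (RPE) were at 0 in no library. They summed to 206, 870 and 824 CPM in P30 mice 1, 2 and 3 and to 90.6 to 275 CPM in the cKO mice. Of these, the pigment genes Dct and Pmel ran from 14.0 to 390 and 4.75 to 258 CPM. Rpe65 and Ttr ran from 5.59 to 25.3 and 28.4 to 99.5 CPM. The paper reports Tyr, Tyrp1, Pmel and Mlana as OTX2 targets that fell after the deletion. The amount of RPE behind this sum was not tested. The 6 smooth muscle markers, of which Cnn1 was at 0 in 2 libraries, summed to 29.5, 181 and 198 CPM in the P30 mice. In the cKO mice they summed to 9.33 to 48.7 CPM. The 5 markers of the ciliary body, none at 0, summed to 134 to 149 at P34 and to 189 to 316 CPM in the other 9 mice. P32 mouse 4 stood apart: it had the lowest level of 22 of the 50 genes and the highest of 5, and the lowest or the highest level of 56.9% of the 18628 genes tested. Across those genes the difference between P32 mouse 4 and the other P32 mice went with exon length (Spearman's rho of -0.43 over 18628 genes of these 3 libraries, given as a description), so that long transcripts were low in it.

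At P30 the 50 genes spanned a wide range of levels. To compare genes, the mean CPM of the P30 mice was divided by the length of the merged exons in kb. On this scale the genes ran from 0.0885 to 28.7 CPM per kb with a median of 3.98, and 12 of them had at least 10 and 11 had less than 1. Extl2, which can add the first sugar of a heparan chain or stop its growth, was the highest with 28.7 CPM per kb. The linker enzyme B3gat3 followed with 27.5 CPM per kb, and the ranges of these 2 genes over the P30 mice overlapped (27.7 to 30.0 against 26.4 to 29.2). B3gat1 with 20.97 CPM per kb lay below both in all 3 mice (19.7 to 22.3). The heparan 3-O-sulfotransferase Hs3st3b1 was next with 17.2 CPM per kb and overlapped Papss1 with 15.6 CPM per kb. The lowest levels were those of the hyaluronan synthase Has1, with 0.0885 CPM per kb, and of the chondroitin synthase Chsy3, with 0.102, and the ranges of these genes over the P30 mice overlapped.

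**Figure D1:**
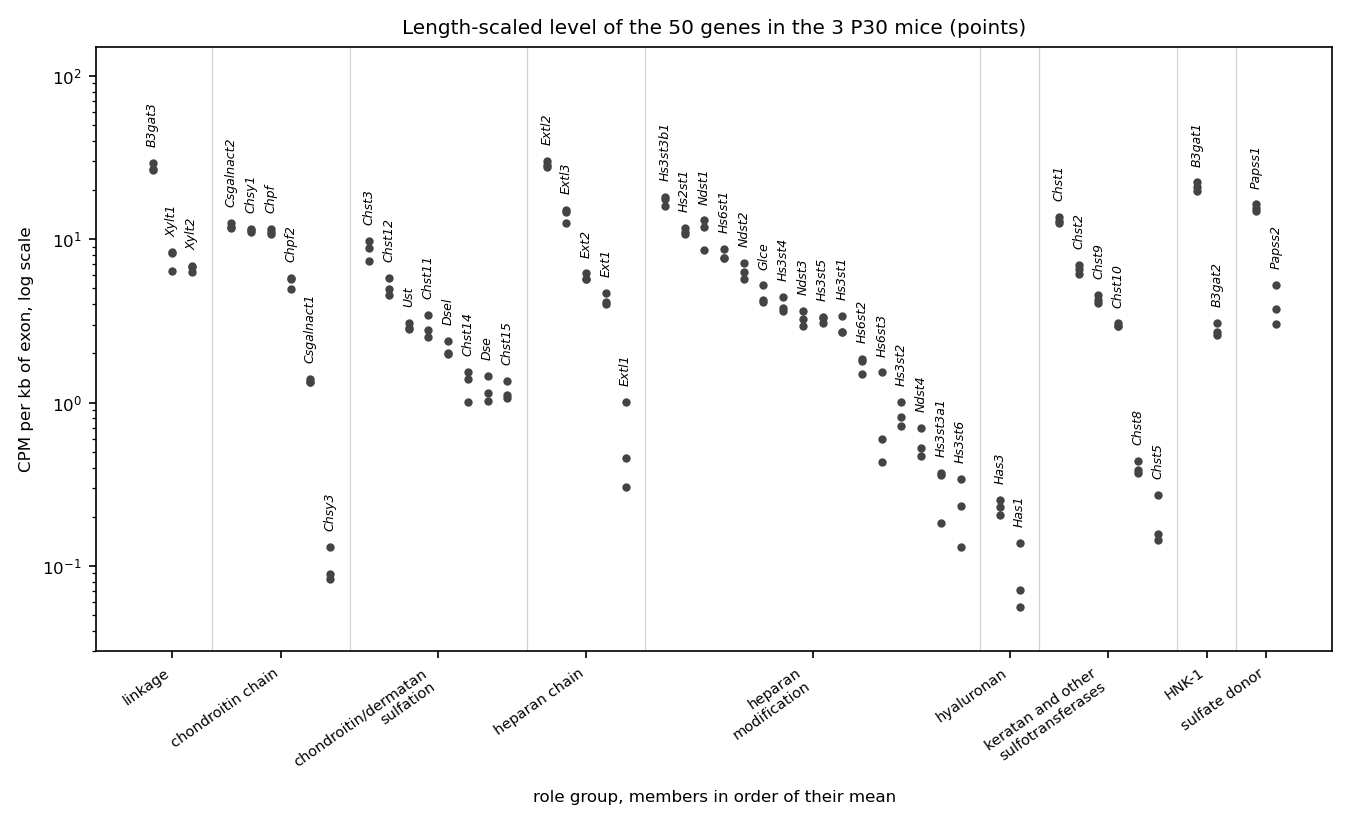
Level of the 50 genes at P30 in CPM per kb of merged exon (vertical axis, log scale), grouped by the role of the enzyme and ordered by mean within a group, with 1 point for each of the 3 P30 mice. Extl2 and B3gat3 lie highest at 28.7 and 27.5 CPM per kb and Has1 lowest at 0.0885.

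Within families a single gene often gave most of the RNA. Papss1 had a higher length-scaled level than Papss2 in every mouse. Among the 7 measured 3-O-sulfotransferases, which add a rare sulfate to heparan, Hs3st3b1 gave 57.1% to 61.8% of the summed level at P30, although its close copy Hs3st3a1 shares sequence with it and the split of reads between them is uncertain. Of the 4 N-deacetylase/N-sulfotransferases, which start the sulfation of heparan, Ndst1 gave 47.0% to 57.6% and Ndst4 2.25% to 3.09% at P30. Xylt1 and Xylt2, which attach the first sugar of the linker, were near parity, with 48.4% to 56.4% from Xylt1. The epimerases that turn glucuronate into iduronate in dermatan were led by Dsel, and Dse gave 34.1% to 38.1% of the pair.

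Most of the 50 genes varied little over the 12 mice. The ratio of the highest to the lowest CPM had a median of 1.62 and was under 2 for 35 of the 50. Chsy1, a chondroitin polymerase, was the most even with a ratio of 1.22, followed by Chst2, Hs6st1 and Papss1 with 1.246 to 1.254. The widest ratios belonged to genes with low counts, 24.1 for Chst5 (1 to 22 counts per library), 19.4 for Hs6st3 (6 to 116 counts) and 9.48 for Hs3st6 (2 to 23 counts). Ndst1 had a ratio of 5.92 at high counts, through its low level of 23.8 CPM in P32 mouse 4.

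Papss2 had the smallest adjusted p of the 50 genes. Papss2 (ENSMUSG00000024899, plus strand of chromosome 19, 32595790 to 32667187, GRCm38) codes for the PAPS synthase whose loss is known to disturb the sulfation of cartilage. It had 11.3, 19.6 and 13.8 CPM in the P30 mice, 8.01, 8.17 and 8.38 at P32, 6.57, 7.20 and 7.45 at P34, then 8.10, 8.61 and 8.42 at P38. All 9 cKO mice lay below all 3 P30 mice. The P30 mice averaged 14.9 CPM ± 4.24 (SD, n = 3), and the P32, P34 and P38 mice 8.19 ± 0.185, 7.07 ± 0.452 and 8.38 ± 0.255 CPM (SD, n = 3 each), or 54.9%, 47.4% and 56.1% of that level. The spread within P30 was far larger than within each cKO age.

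At P34 Papss2 fell by 1.08 on the log2 scale (SE 0.175, adjusted p = 0.0160, quasi-likelihood test of edgeR, Benjamini-Hochberg over all 18628 genes), a 2.11-fold lower level. With the 9 cKO mice as one group it fell by 0.92 (SE 0.139, edgeR adjusted p = 0.0380), a 1.89-fold lower level, a call that held in 7 of 20 alternative settings. The log2 fold changes at P32 and P38 were -0.87 (SE 0.174) and -0.83 (SE 0.174), with edgeR adjusted p of 0.592 and 0.506, which did not pass; DESeq2 gave adjusted p of 0.00841 and 0.0121. Over 19 alternative settings the P34 value lay between -1.31 and -0.83 and passed in 13 of them. It did not pass without any 1 of the 3 P34 mice (adjusted p of 0.0705 to 0.0930), in a fit of P30 and P34 alone (0.0527), with sex as a covariate (0.0513, log2 fold change -1.04) or with the mean log2 CPM of the ciliary body markers (the ciliary body score) as one (0.596), all from edgeR. With that score the log2 fold change was -1.31 and its SE 0.416. The score was 0.853 to 1.33 in the P34 mice and 2.56 to 3.92 in the other mice. A fit with the score can thus hardly tell it from P34, and 0 of 18628 genes passed in it.

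Marker sums of tissue around the retina moved with Papss2 in part of the P30 mice. P30 mice 2 and 3, with 19.6 and 13.8 CPM of Papss2, had the high RPE sums of 870 and 824 CPM and smooth muscle sums of 181 and 198 CPM. P30 mouse 1 had an RPE sum of 206 CPM and a smooth muscle sum of 29.5 CPM, both inside the range of the cKO mice, and its Papss2 level of 11.3 CPM was above the highest cKO value of 8.61 CPM. Without P30 mouse 2 the log2 fold change with all cKO mice as one group was -0.67 (edgeR adjusted p = 0.451), and without P30 mouse 1 it was -1.09 (edgeR adjusted p = 0.00448), and Papss2 then also passed at P32 (log2 fold change -1.03, edgeR adjusted p = 0.0489). In female mice alone (3 P30 and 4 cKO) the log2 fold change was -0.87 and did not pass (edgeR adjusted p = 0.641). How much of the Papss2 difference comes from RPE or smooth muscle RNA was not tested.

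**Figure D2:**
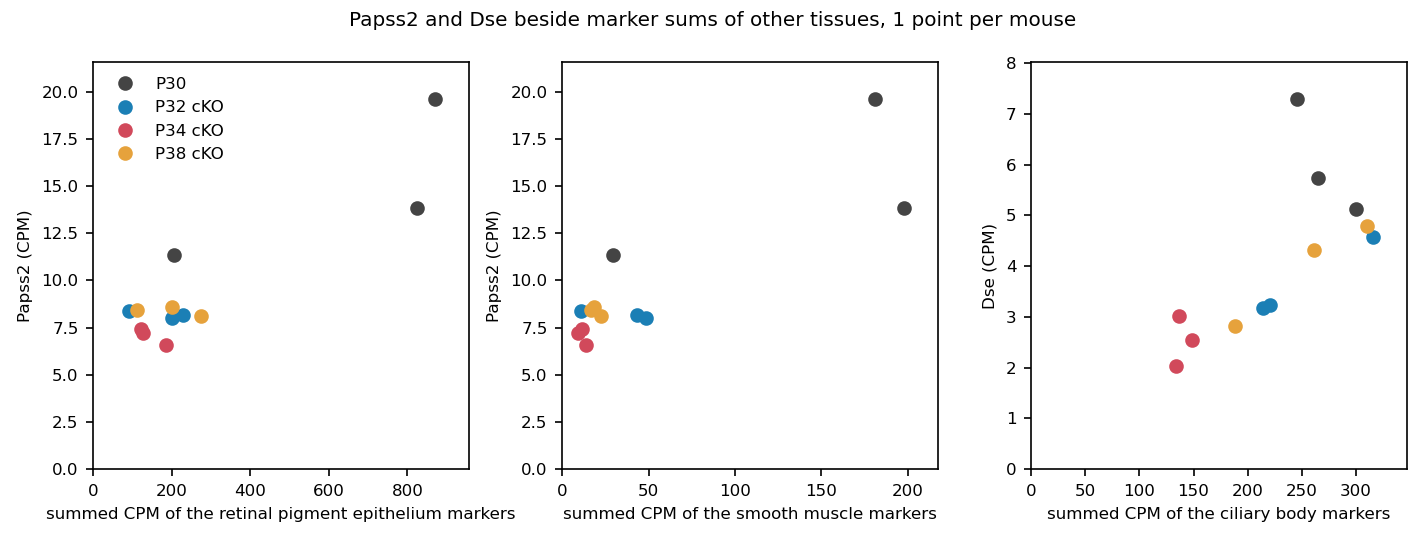
Papss2 against the summed CPM of 10 RPE markers and of 6 smooth muscle markers, and Dse against the summed CPM of 5 ciliary body markers (both axes in CPM, linear), with 1 point per mouse coloured by condition. P30 mouse 1 has marker sums inside the cKO range (206 and 29.5 CPM) and 11.3 CPM of Papss2, and the 3 P34 mice have the lowest ciliary body sums (134 to 149 CPM) with 2.03 to 3.01 CPM of Dse.

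The levels of Papss1 overlapped between the conditions. Papss1 (ENSMUSG00000028032, plus strand of chromosome 3, 131564768 to 131643671) had 49.8, 45.5 and 47.5 CPM at P30, 43.1, 48.4 and 48.1 at P32, 54.1, 46.3 and 50.6 at P34, then 48.6, 47.3 and 46.3 at P38. The fitted log2 fold changes against P30 were -0.032 (SE 0.0898) at P32, 0.081 (SE 0.0898) at P34 and -0.0056 (SE 0.0898) at P38. On the length-scaled levels Papss2 gave 15.7%, 26.1% and 19.3% of the 2 synthases in the P30 mice and 9.06% to 13.2% in the cKO mice. The sum of both was 19.3 to 20.2 CPM per kb at P30 and 16.3 to 19.5 CPM per kb in the cKO mice.

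Dse was the other gene past the threshold. Dse (ENSMUSG00000039497, minus strand of chromosome 10, 34151393 to 34207715) is an epimerase that turns chondroitin into dermatan sulfate. It had 5.13, 7.29 and 5.74 CPM at P30, 3.24, 4.57 and 3.18 at P32, 3.01, 2.03 and 2.54 at P34, then 4.78, 4.32 and 2.82 at P38. Again all 9 cKO mice were below all P30 mice, with the closest pair at 4.78 and 5.13 CPM. The P34 mean of 2.53 CPM ± 0.488 (SD, n = 3) was 41.8% of that of the P30 mice, 6.05 CPM ± 1.12 (SD, n = 3), and the means at P32 and P38 were 60.6% and 65.6% of it.

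Dse fell by 1.26 on the log2 scale at P34 (SE 0.253, edgeR adjusted p = 0.0499), a 2.39-fold lower level just inside the threshold. The log2 fold changes were -0.72 (SE 0.248) at P32, -0.60 (SE 0.247) at P38 and -0.83 (SE 0.233) with all cKO mice as one group, and none of these passed (edgeR adjusted p of 0.698, 0.847 and 0.704). The P34 call held in 8 of 19 alternative settings. It was lost without any 1 of the 3 P30 or 3 P34 mice or without P38 mouse 10 or 11, with a limit of 10 counts in 3 libraries in place of the filter, and with sex as a covariate, where the log2 fold change was -1.35 (edgeR adjusted p = 0.0815). When the ciliary body score entered as a covariate, the value was -0.29 (SE 0.518, edgeR adjusted p = 0.848). That fit can hardly tell the score from P34, and 0% of all genes passed in it. The 3 P34 mice had the lowest ciliary body sums, 134 to 149 CPM, and the part of ciliary body RNA in the Dse level was not tested.

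Its paralog Dsel had overlapping levels in all conditions, with 11.5 to 13.7 CPM at P30 and 11.7 to 12.3 at P34. In the pair, Dse gave 34.1% to 38.1% of the length-scaled level at P30, 22.5% to 31.8% at P32, 16.7% to 22.7% at P34 and 20.4% to 33.6% at P38.

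**Figure D3:**
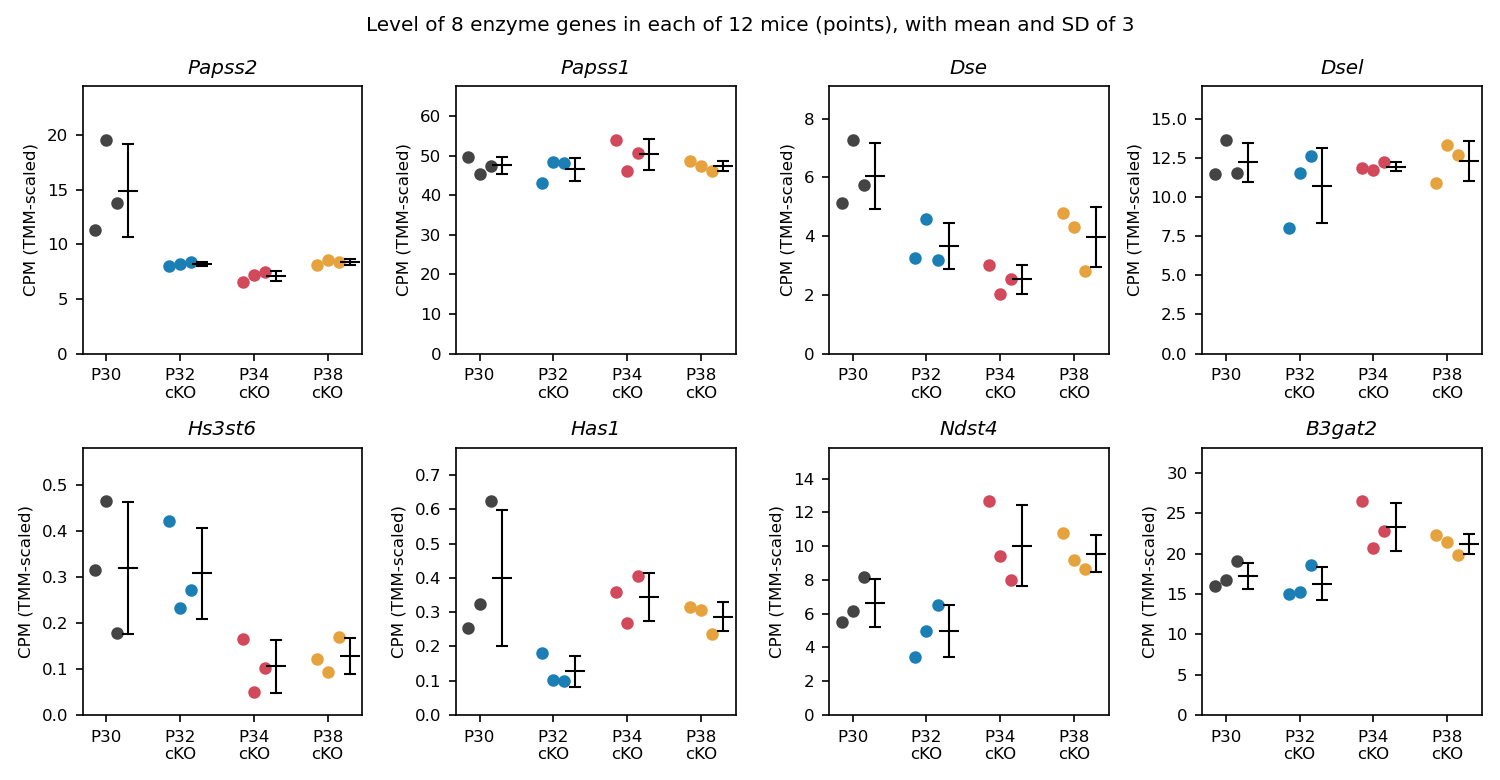
CPM of 8 genes (vertical axes, linear from 0) in each of the 12 mice, with the mean and SD of the 3 mice beside the points of each condition. Papss2 and Dse are lower in all 9 cKO mice than in the 3 P30 mice, while Papss1 and Dsel overlap between conditions.

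Across the 50 genes, few passed in any comparison. At P34 versus P30, 2 of the 50 genes passed, both lower (Papss2 and Dse), where 0.66% of all genes tested did (123 lower, 0 higher). With the cKO mice as one group 1 of 50 passed (Papss2, lower), where 0.0537% of all genes did. At P32 versus P30 and at P38 versus P30, edgeR called 0 of the 50 genes and 0% of all genes. Without the adjustment, at p of at most 0.05 and the same fold limit, 3 of the 50 genes were past these limits at P32 (2.9% of all genes), 5 at P34 (6.27%), 5 at P38 (3.46%) and 2 with the cKO mice as one group (1.88%). These counts moved with single mice: 9 at P32 without P32 mouse 6 (9.5% of all genes), 3 at P34 without P34 mouse 7 (4.96%), and at P38 2 without P30 mouse 2 (2.48%), 2 without P38 mouse 12 (3.92%) and 3 without P38 mouse 11 (3.08%). With the cKO mice as one group it was 5 without P32 mouse 4 (2.55%) and 4 without P32 mouse 5 (2.31%). The counts at P34 and P38 include Hs3st6 and Chst5, which reached 10 counts in 4 and 5 libraries, all of them P30 or P32, and so entered the 50 genes through the groups in which they were high. Has1, one of the 3 at P32, reached 10 counts in 0 of the P32 libraries. DESeq2 with its adjusted p called Papss2 in all 4 comparisons and Dse at P34, beside 0.134% of all genes at P32, 1.98% at P34, 0.242% at P38 and 0.248% with the cKO mice as one group.

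The fitted values of most of the 50 genes lay near 0. At P32, 35 of the 50 fitted values were below 0, with a median log2 fold change of -0.076 against -0.0088 over all genes tested. This moved with single mice. Without P32 mouse 4, 26 of the 50 were below 0, with a median of -0.0065 against -0.011 over all genes. Without P30 mouse 3, 30 were, with a median of -0.029 against -0.0028. Without P32 mouse 6, 32 were, with a median of -0.124 against -0.017. At P34, 34 of the 50 were above 0 with a median of 0.077 against -0.0013, and without P34 mouse 7, the highest mouse for 13 of the 50 genes, 28 were, with a median of 0.013 against -0.017. At P38, 29 of the 50 were above 0 with a median of 0.027 against -0.0091, and the median was 0.074 without P38 mouse 10 (all genes -0.012) and 0.013 without P38 mouse 12 (all genes -0.0093, 26 of the 50 above 0). With the cKO mice as one group the median was 0.038 against 0.0096, and it was 0.00039 against 0.0013 without P30 mouse 1 and 0.0030 against 0.0032 without P34 mouse 7. At P34, 44 of the 50 genes lay within 0.5 of 0 on the log2 scale, and 85.4% of all genes did. The CPM ranges of the cKO and P30 mice did not overlap for 7 of the 50 genes at P32 (9.65% of all genes), 8 at P34 (20.1%) and 12 at P38 (16.2%). These counts include Has1 at P32 and Hs3st6 and Chst5 at P34 and P38. These 3 genes entered the 50 through groups in which they were high. For 2 of the 50, Papss2 and Dse, the ranges did not overlap when all 9 cKO mice were set against P30 (0.601% of all genes).

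**Figure D4:**
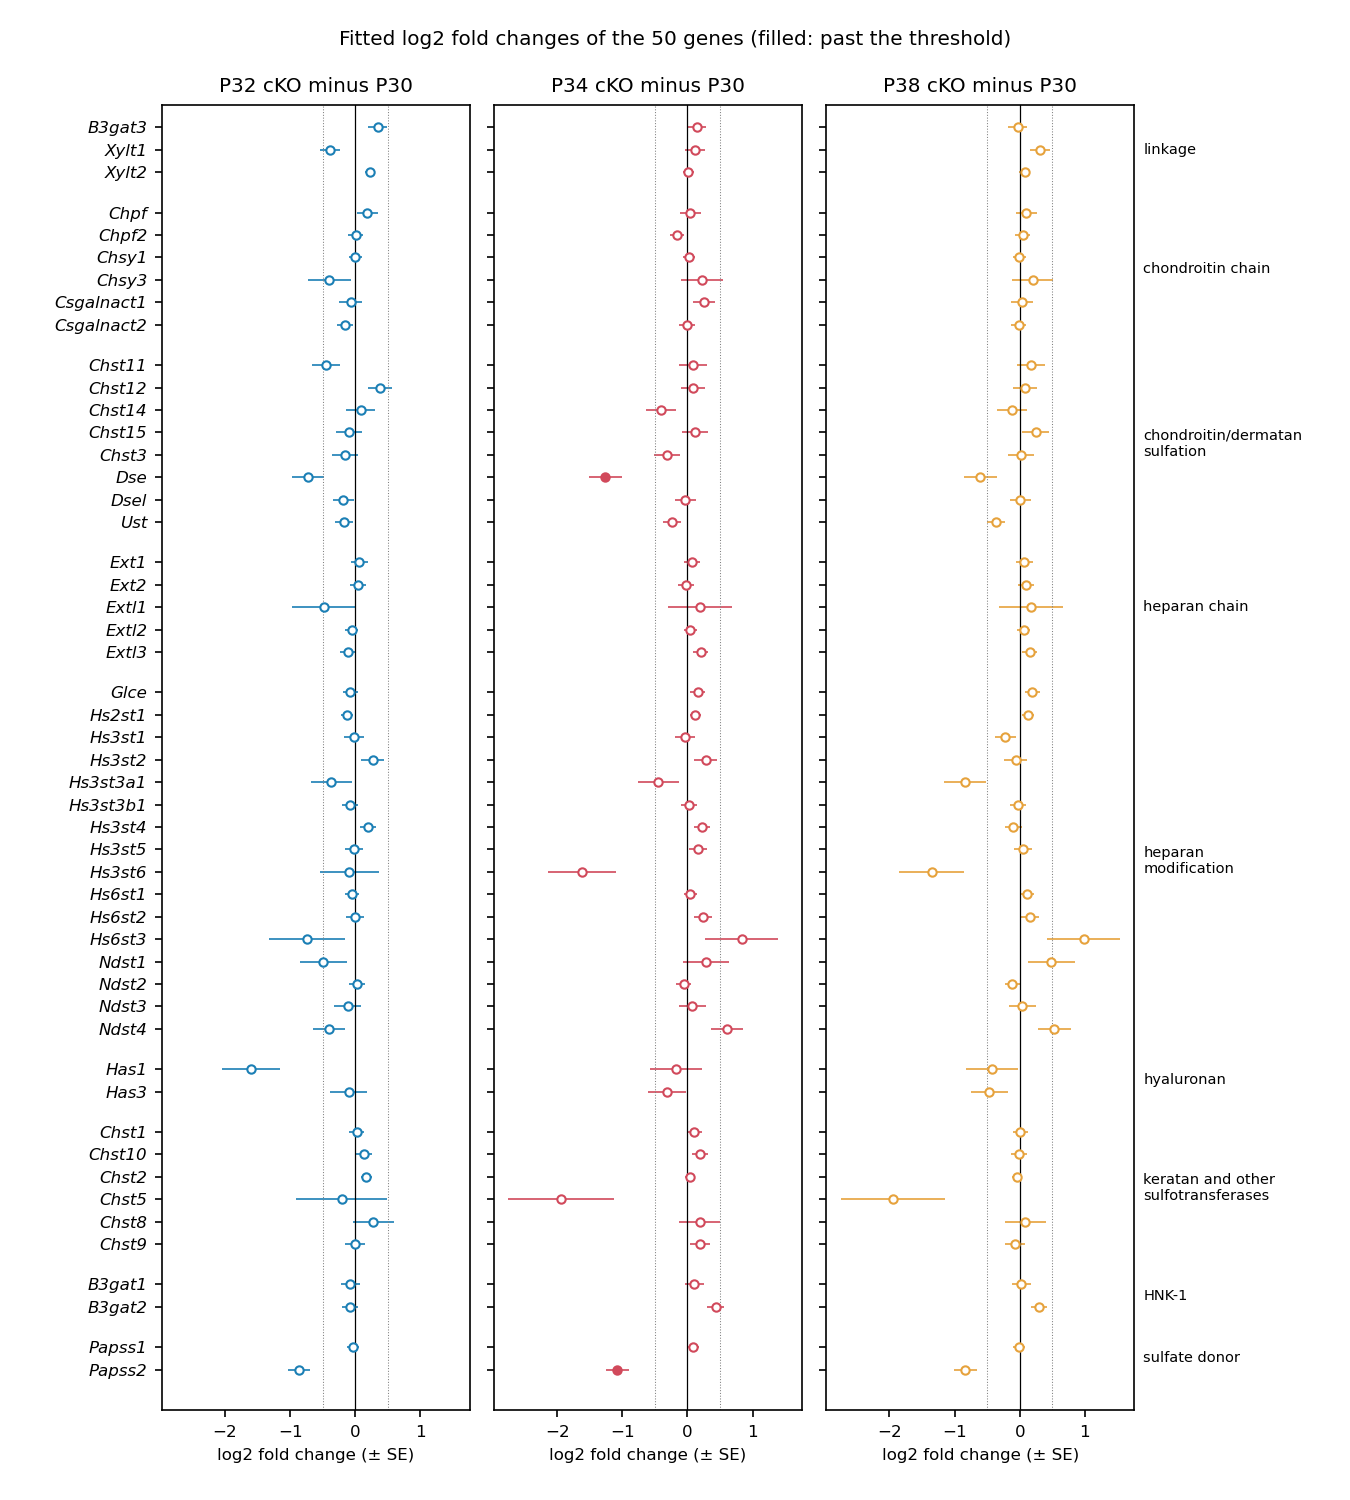
Fitted log2 fold changes against P30 (horizontal axis, with SE bars) of the 50 genes at P32, P34 and P38, ordered by the role of the enzyme, with dotted lines at the limit of 0.5 and filled points for genes past the threshold. Filled points are Papss2 (-1.08) and Dse (-1.26) at P34.

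Among the 3 linker enzymes, 0 passed with edgeR in any comparison with P30. B3gat3, which adds the last sugar of the linker, had 75.6, 69.5 and 68.2 CPM at P30, 113, 80.6 and 76.8 at P32, 89.8, 67.6 and 78.5 at P34, then 73.0, 66.4 and 70.0 at P38. The 113 CPM belonged to P32 mouse 4, and the log2 fold change at P32 was 0.34 with it and 0.15 without it. Xylt2 had 27.0, 27.2 and 25.2 CPM at P30 and 29.4, 32.3 and 31.4 at P32, a log2 fold change of 0.23 (SE 0.0815, edgeR adjusted p = 0.698), under the fold limit, and 26.4 to 28.4 at P34 and P38. Xylt1 had 61.3, 80.1 and 79.2 CPM at P30, 46.2, 56.0 and 66.9 at P32, 74.2, 89.3 and 74.5 at P34, then 92.995, 99.99 and 80.0 at P38. At P32 Xylt1 gave 39.3%, 41.7% and 46.8% of the pair in mice 4, 5 and 6, against 48.4% to 59.2% in all other mice. The merged exons of Xylt1 hold 9651 bases and those of Xylt2 3979, and long transcripts were low in P32 mouse 4. The part of transcript length in this share was not tested.

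The 6 genes that start or extend chondroitin (Csgalnact1, Csgalnact2, Chsy1, Chsy3, Chpf and Chpf2) had log2 fold changes between -0.40 and 0.26 in the comparisons of P32, P34 and P38 with P30, and 0 passed. Csgalnact2, which adds the first galactosamine and had the highest length-scaled level of the 6, had 63.8, 68.2 and 64.2 CPM at P30, 52.5, 54.5 and 68.4 at P32, 58.6, 73.1 and 63.9 at P34, then 70.3, 59.3 and 64.4 at P38. Its conditions overlapped.

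Of the 8 genes that sulfate or epimerise chondroitin and dermatan (Chst3, Chst11, Chst12, Chst14, Chst15, Ust, Dse and Dsel), only Dse passed with edgeR, at P34. Chst3, which sulfates chondroitin at carbon 6 and had the highest length-scaled level of the 8, had 47.7, 63.7 and 57.8 CPM at P30, 37.5, 51.5 and 61.7 at P32, 33.96, 54.8 and 47.9 at P34, then 52.4, 55.7 and 62.6 at P38. These ranges overlapped. Ust, which puts sulfate on uronic acids, had 13.1, 13.2 and 14.2 CPM at P30, 9.33, 13.5 and 13.1 at P32, 11.2, 11.6 and 11.6 at P34, then 9.53, 11.1 and 10.8 at P38. All P34 and P38 mice were below the P30 mice in Ust, with log2 fold changes of -0.24 (SE 0.142) and -0.36 (SE 0.142) that stayed under the fold limit.

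Heparan polymerisation rests on Ext1 and Ext2, which act as a complex, and on the Extl genes. The 5 genes (Ext1, Ext2, Extl1, Extl2 and Extl3) had log2 fold changes of -0.48 to 0.20 at P32, P34 and P38, and 0 passed. Extl2 had 95.5, 97.6 and 103 CPM at P30, 97.4, 90.8 and 97.5 at P32, 114, 94.4 and 96.3 at P34, then 113, 94.6 and 102 at P38, with no separation between conditions.

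The 16 genes that modify heparan are Glce, Hs2st1, Hs3st1, Hs3st2, Hs3st3a1, Hs3st3b1, Hs3st4, Hs3st5, Hs3st6, Hs6st1, Hs6st2, Hs6st3, Ndst1, Ndst2, Ndst3 and Ndst4, and 0 of them passed with edgeR's adjusted p in any of 7 comparisons. Hs3st3b1 had 78.0, 86.3 and 89.0 CPM at P30, 70.0, 78.0 and 90.6 at P32, 75.7, 88.4 and 94.1 at P34, then 93.2, 77.3 and 79.4 at P38, and its conditions overlapped. Its copy Hs3st3a1, at 16 to 70 counts per library, had 0.726, 1.41 and 1.46 CPM at P30, 1.02, 1.11 and 0.641 at P32, 0.939, 0.759 and 0.914 at P34, then 0.728, 0.704 and 0.543 at P38. The P38 value of Hs3st3a1 was -0.84 on the log2 scale (SE 0.319, edgeR adjusted p = 0.847), and P30 mouse 1 overlapped the P38 mice.

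Hs3st6 (plus strand of chromosome 17, 24752988 to 24758684) was counted 20, 23 and 6 times at P30, 14, 9 and 11 times at P32, 6, 2 and 3 times at P34, then 5, 4 and 5 times at P38. In CPM this was 0.178 to 0.464 at P30, 0.233 to 0.420 at P32, 0.0490 to 0.166 at P34, then 0.0938 to 0.170 at P38. The log2 fold changes at P34 and P38 were -1.61 (SE 0.520) and -1.35 (SE 0.502), with edgeR adjusted p of 0.293 and 0.847. All P34 and P38 mice were below all P30 mice in CPM, the closest pair at 0.170 and 0.178, in a gene that reached 10 counts only in P30 and P32 libraries. The most positive fitted values of the 16 genes were those of Hs6st3, 0.83 (SE 0.560 for both) at P34 and 0.98 at P38, and neither passed.

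Ndst4 (plus strand of chromosome 3, 125404076 to 125728899), the least abundant of the 4 N-deacetylase/N-sulfotransferases, had 5.49, 6.14 and 8.20 CPM at P30, 3.42, 4.99 and 6.53 at P32, 12.7, 9.43 and 7.99 at P34, then 10.8, 9.19 and 8.66 at P38. The P38 mice were above all P30 mice, and the P34 mice overlapped them by a narrow margin. The log2 fold changes against P30 were 0.61 (SE 0.247) at P34 and 0.53 (SE 0.247) at P38, with edgeR adjusted p of 0.428 and 0.847.

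The 2 measured hyaluronan synthases had few counts, 4 to 21 per library for Has1 and 27 to 83 for Has3. Has1 was counted 16, 16 and 21 times at P30, 6, 4 and 4 times at P32, 13, 11 and 12 times at P34, then 13, 13 and 7 times at P38. All 3 P32 mice were below all other mice in CPM, at 0.0986 to 0.180 CPM against 0.238 to 0.624 CPM. The log2 fold change at P32 was -1.61 (SE 0.447, edgeR adjusted p = 0.698). Has3 had 1.31, 1.62 and 1.46 CPM at P30, 0.870, 1.58 and 1.63 at P32, 0.994, 1.59 and 0.914 at P34, then 1.09, 0.962 and 1.12 at P38, and it overlaps Chtf8 on the opposite strand, which makes its counts uncertain. All P38 mice were below the P30 mice in Has3, with a log2 fold change of -0.46 (SE 0.289).

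Keratan sulfate and glycoprotein sugars are sulfated by the 6 genes Chst1, Chst2, Chst5, Chst8, Chst9 and Chst10, of which 0 passed with edgeR. Chst1, a keratan sulfotransferase, had 36.9, 34.6 and 33.7 CPM at P30, 33.0, 38.3 and 35.3 at P32, 42.5, 34.4 and 36.0 at P34, then 31.7, 39.6 and 34.6 at P38, all overlapping. Chst5 was counted 1 to 22 times per library, and its log2 fold changes of -1.94 at P34 and -1.95 at P38 rest on 1 to 8 counts per mouse, in a gene that reached 10 counts only in P30 and P32 libraries. For the HNK-1 epitope, a sugar of adhesion molecules on neurons, B3gat1 had 97.9, 110.4 and 104 CPM at P30, 79.1, 110.0 and 106 at P32, 118, 111 and 106 at P34, then 84.9, 121 and 111 at P38. B3gat2 had 16.0, 16.7 and 19.0 CPM at P30, 15.0002, 15.3 and 18.6 at P32, 26.5, 20.7 and 22.7 at P34, then 22.3, 21.4 and 19.8 at P38. All P34 and P38 mice were above all P30 and P32 mice in B3gat2, with log2 fold changes against P30 of 0.44 (SE 0.128, edgeR adjusted p = 0.242) at P34 and 0.30 (SE 0.128, edgeR adjusted p = 0.847) at P38, under the fold limit. B3gat2 and Smap1 overlap on opposite strands, as do B3gat1 and Glb1l2, Ndst1 and Rps14, and Chpf2 and Smarcd3, while Chst15 and Fgfr2 overlap on the same strand. The strand setting of the counting is not given in the sources used here, so these counts are uncertain.

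The ages after tamoxifen were also compared with each other. At P34 versus P32, edgeR called 0 of the 50 genes where 0.242% of all genes passed, at P38 versus P34 0 of 50 where 0.199% passed, and at P38 versus P32 0 of 50 and 0% of all genes. Without the adjustment 6 of the 50 genes were past the limits at P34 versus P32 (14.4% of all genes), 1 at P38 versus P34 (3.81%) and 7 at P38 versus P32 (11.9%). DESeq2 called 3 of the 50 at P34 versus P32 (8.65% of all genes), 0 at P38 versus P34 (0.774%) and 3 at P38 versus P32 (6.05%), with no adjusted p for 3, 0 and 4 of the 50 genes. Its calls, named after their values were seen, were higher levels of B3gat2, Hs6st3 and Ndst4 at P34 and of Hs6st3, Ndst4 and Xylt1 at P38, all against P32. Hs6st3, a heparan 6-O-sulfotransferase, was counted 6, 32 and 62 times at P32, 91, 103 and 78 times at P34, then 95, 116 and 103 times at P38, and 47, 51 and 88 times at P30. P32 mouse 4 had the lowest level of B3gat2, Hs6st3, Ndst4 and Xylt1 of all 12 mice, and its part in these calls was not tested with DESeq2. Without it, the edgeR test called 0 of the 50 genes in both comparisons, where 0.226% of all genes passed at P34 versus P32 and 0.00527% at P38 versus P32. Without P32 mouse 6 it called 5 in each, where 14.3% and 10.2% of all genes passed.

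The other genes of the pathway were taken from 9 lists of 80 symbols, of which 74 were tested. At P34 versus P30, 6 of the 74 passed with edgeR, all lower, where 0.66% of all genes tested did. At P32, at P38 and with the cKO mice as one group, 0 of the 74 passed against P30 (0%, 0% and 0.0537% of all genes), while 5, 4 and 5 were past the limits without the adjustment (2.9%, 3.46% and 1.88% of all genes) and DESeq2 called 0, 1 (Hpse) and 0 (0.134%, 0.242% and 0.248%). At P34, DESeq2 called 8 of the 74 (1.98% of all genes). The 6 genes past edgeR's threshold at P34 were 4 of the 14 tested core proteins of chondroitin and keratan sulfate, 1 of the 14 of heparan sulfate and 1 of the 13 genes of precursor supply. The lists of linker enzymes outside the rule, keratan chain enzymes, sulfatases and heparanase, hyaluronan breakdown, lysosomal breakdown and hyaluronan binding had 0 with edgeR at P34.

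Vcan, the large hyaluronan-binding chondroitin sulfate proteoglycan versican, had 17.9, 22.4 and 26.7 CPM at P30, 12.2, 18.2 and 12.0 at P32, 2.93, 2.92 and 2.34 at P34, then 16.9, 22.1 and 15.3 at P38. The P34 mice were below all other mice, and the log2 fold change against P30 was -3.03 (SE 0.227, edgeR adjusted p = 0.000171). Fmod, the small keratan sulfate proteoglycan fibromodulin, had 28.9 to 33.0 CPM at P30, 13.7 to 36.2 at P32, 1.76 to 4.67 at P34, then 15.5 to 29.2 at P38, with a log2 fold change at P34 of -3.41 (SE 0.420, edgeR adjusted p = 0.00270). Col18a1, the basement membrane collagen that carries heparan sulfate, had 89.5 to 104 CPM at P30, 45.9 to 105 at P32, 19.9 to 21.5 at P34, then 58.4 to 92.8 at P38, with a log2 fold change of -2.22 (SE 0.264, edgeR adjusted p = 0.00201). These 3 genes also passed at P34 versus P32 (lower) and at P38 versus P34 (higher).

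Ogn (osteoglycin) had 15.8 to 42.9 CPM at P30, 4.07 to 36.5 at P32, 0.966 to 1.32 at P34, then 10.1 to 33.1 at P38, and it passed at P34 against P30 (log2 fold change -4.77, SE 0.787, edgeR adjusted p = 0.0171) and against P32. Bgn (biglycan), a small proteoglycan with chondroitin or dermatan chains, had 5.54 to 10.0 CPM at P30, 3.03 to 6.56 at P32, 1.69 to 2.47 at P34, then 2.44 to 5.02 at P38, so that P38 mouse 12 lay inside the P34 range (log2 fold change at P34 -1.94, SE 0.351, edgeR adjusted p = 0.0279). Gfpt2, which feeds the hexosamine pathway, had 2.63 to 3.59 CPM at P30, 1.85 to 2.56 at P32, 0.784 to 1.30 at P34, then 1.63 to 2.74 at P38 (log2 fold change at P34 -1.53, SE 0.276, edgeR adjusted p = 0.0273). The P34 calls of Vcan, Fmod and Col18a1 held in 18 of 19 alternative settings each, that of Ogn in 14, that of Gfpt2 in 12 and that of Bgn in 11. Ogn, Gfpt2 and Bgn did not pass without any 1 of the 3 P34 mice (edgeR adjusted p of 0.0862 to 0.163). With sex as a covariate Bgn and Gfpt2 had edgeR adjusted p of 0.0575 and 0.0585, at log2 fold changes of -2.02 and -1.59. Several marker sums of other tissue moved with these 6 genes. The ciliary body markers summed to 134 to 149 CPM at P34 and 189 to 316 CPM elsewhere, with 2 of 5 lower at P34 versus P30. The 5 fibroblast markers, none at 0, summed to 25.8 to 44.9 CPM at P34 and 37.9 to 86.9 CPM elsewhere, with 1 lower. Of the tested smooth muscle and RPE markers, 4 of 5 and 2 of 10 were lower. The 8 lens markers, none at 0, summed to 86.8 to 248 CPM at P34 and 170 to 15072 CPM elsewhere, and the 5 cornea markers, 2 of them at 0 in some library, to 1.24 to 4.04 CPM and 0.937 to 52.7 CPM, with 0 lower in both lists. P30 mouse 2, P32 mouse 6 and P38 mouse 12 were the lowest of their groups in Ogn (15.8, 4.07 and 10.1 CPM). They were also the lowest of their groups in the cornea sum (2.36, 0.937 and 4.82 CPM). The same held for the ciliary body sum (246, 215 and 189 CPM) and the fibroblast sum (58.2, 37.9 and 46.3 CPM). In the lens sum P38 mouse 11 was the lowest at P38. In the smooth muscle and RPE sums P30 mouse 1 was the lowest at P30. When the ciliary body score entered the fit, 0 of these 6 passed, at log2 fold changes from -2.32 for Vcan to 0.27 for Ogn. In that fit 0% of all genes passed, and it can hardly tell the score from P34. The part of the ciliary body and the other tissues in the result was not tested. For Papss2, the P32 and P38 mice had 8.01 to 8.61 CPM, and the P34 mice had 6.57 to 7.45 CPM.

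**Figure D5:**
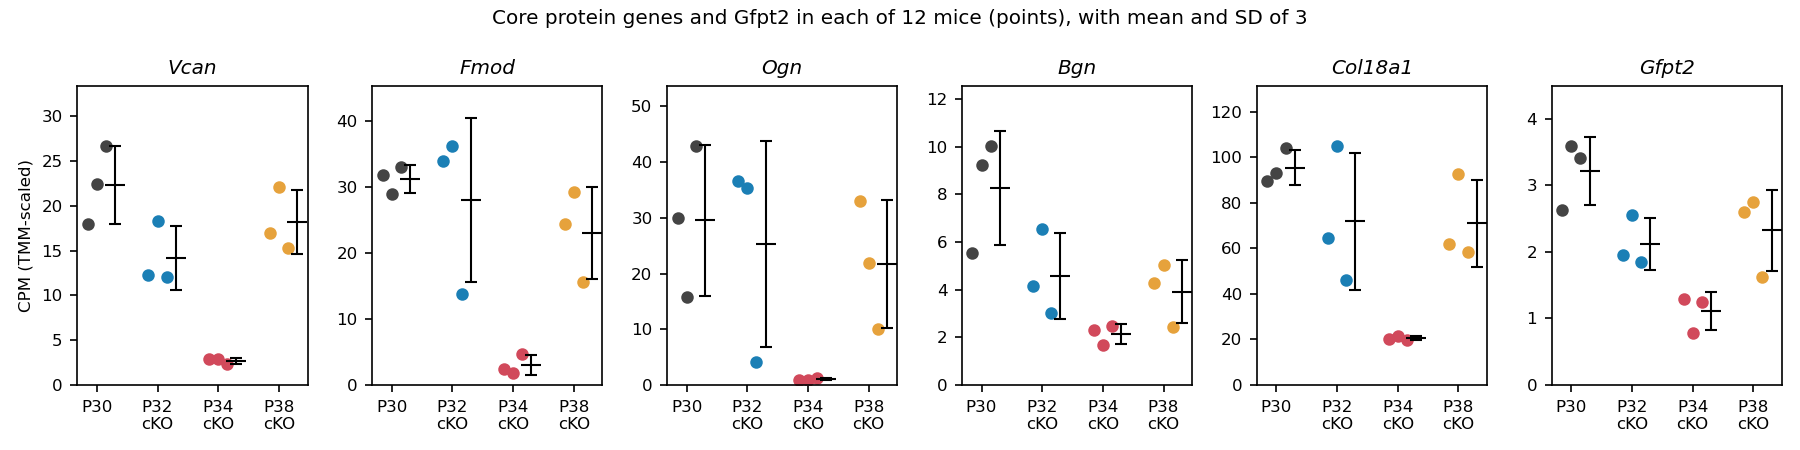
CPM of 5 core protein genes and of Gfpt2 (vertical axes, linear from 0) in each of the 12 mice, with the mean and SD of the 3 mice beside the points of each condition. Vcan is at 2.34 to 2.93 CPM in the 3 P34 mice and at 12.0 CPM or more in the other 9.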

How the data were processed

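Whole retina RNA of 12 mice was sequenced by the authors as stranded mRNA libraries, mapped to mm10 with STAR 2.5.3a and counted per Ensembl gene with HTSeq 0.6.1p1 in union mode, 1 library per mouse. The deposited files hold these raw counts, with 5 closing entries that name no gene and were left out (reads not uniquely mapped came to 23.7% to 32.2%). The strand option of the counting is not given in the sources used here. From here on, symbols, gene types and merged exon lengths were taken from GENCODE M21 (99.9% of genes matched). The counts were scaled by TMM, filtered with filterByExpr and tested with edgeR 4.0.16 in R 4.3.3 (quasi-likelihood test, 1 mean per condition over all 12 mice, and a separate 2-group fit for cKO versus P30), with Benjamini-Hochberg adjustment over 18628 genes. A call needed an adjusted p no larger than 0.05 and an absolute log2 fold change of 0.5 or more. CPM were computed from the counts, and promoter letters were read from RefSeq windows.

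Totals of 29701483 to 60145034 counts per library set the precision, and intervals between mice cover mouse-to-mouse and technical spread together. No pair of replicates agreed within sampling noise. Samples were grouped by the labels. Values in each mouse are given for genes past the threshold in any of 7 comparisons, for the 5 genes with the smallest p in each of the 4 comparisons with P30 and for the gene with the highest length-scaled level in each role group; other pathway genes are named where they passed. The members, role groups, pathway lists and markers were chosen with earlier results of these data known. Alternatives were another size factor, other filters, DESeq2 1.42.0, unadjusted p, each mouse left out, covariates for sex and for the mean log2 CPM of the ciliary body markers, and 2-condition fits; female mice alone, the medians of the 50 genes without each mouse and all alternatives for the other pathway genes were added after seeing the data. The fits were tested on simulated data. Protein sequences were not used here.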

Additional observations from a re-analysis of the deposited data

Results flagged for a closer look

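Each of the 50 genes was examined for a single mouse far from the other 8 among the 9 cKO mice (Dixon's gap divided by range). Chance marks about 1 in 20 such groups, and 5 of 50 were marked. In 4 of these the mouse was P32 mouse 4, with 19.9 CPM of Chst12 (10.4 to 15.1 CPM in the others), 62.0 CPM of Chpf (37.1 to 49.4), 113 CPM of B3gat3 (66.4 to 89.8) and 8.04 CPM of Dsel (10.9 to 13.3). The merged exons of the genes highest in this mouse had a median of 3856 bases among the 50 genes and 2437 bases among all genes tested, and those of the genes lowest in it 5913 and 6185 bases. The part of transcript length in these values was not tested. The other was P34 mouse 7, with 19.1 CPM of Hs3st5 against 12.6 to 15.04 CPM in the others.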

How the results depend on the processing

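The log2 fold changes of Papss2 and Dse against P30 stayed negative in every alternative run. The value of Ogn at P34 versus P30 reversed, from -4.77 (SE 0.787) to 0.268 (SE 0.748), when the ciliary body score entered the fit. That fit can hardly tell the score from P34. Against P30, DESeq2 called 1 of the 50 genes for P32 (0.134% of all genes), 2 for P34 (1.98%) and 1 for P38 (0.242%). Against P32 it called 3 for P34 (8.65%) and 3 for P38 (6.05%). Unadjusted p gave 3, 5, 5 and 2 genes at P32, P34, P38 and cKO versus P30 (2.9%, 6.27%, 3.46% and 1.88% of all genes). It gave 6, 1 and 7 for P34 versus P32, P38 versus P34 and P38 versus P32 (14.4%, 3.81% and 11.9%). At P34 versus P30, where the value was 2 (0.66% of all genes), it was 1 with the limit of 10 counts in 3 libraries (0.639%). It was 1 in the fit of both conditions alone (1.11%). It was 0 with sex as a covariate (0.762%) and 0 with the ciliary body score (0%). With the cKO mice as one group, where it was 1 (0.0537% of all genes), it was 0 with either covariate and 0 in the 7 female mice. In each of these fits 0% of all genes passed. With no filter it was 1 (Ndst4) at P34 versus P32 and 1 (Xylt1) at P38 versus P32, where 1.93% and 0.591% of all genes passed. The cause was not tested, and the fits of fewer mice also have less precision.

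Leaving out 1 mouse at a time gave 0 to 1 genes at P32 versus P30 (0% to 0.0997% of all genes). It was 1, Papss2, without P30 mouse 1 (0.0997%). At P34 versus P30 it gave 0 to 2 (0.226% to 1.12%). It was 0 without P34 mouse 7 (0.283%), 8 (0.226%) or 9 (0.257%). With the cKO mice as one group it gave 0 to 1 (0% to 0.252%). It was 1 only without P30 mouse 1 (0.252%) or P32 mouse 4 (0.0632%). It gave 0 to 5 at P34 versus P32 and 0 to 5 at P38 versus P32, with 5 in both without P32 mouse 6, where 14.3% and 10.2% of all genes passed (B3gat2, Chst5, Hs6st3, Ndst4 and Xylt1 at P34, and Chst5, Hs6st3, Ndst1, Ndst4 and Xylt1 at P38). Of the values of single genes under all alternatives, 1573 kept their side of the threshold or moved by less than the spread between mice, 20 moved further, 13 passed newly, 52 no longer passed and 1 reversed. No paired analysis was possible because each mouse has its own number and gave 1 library. Depth limits Chst5, Hs3st6 and Has1, whose libraries held 1 to 23 counts.

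Of the 74 other pathway genes, 6, 4 and 3 passed at P34 versus P30, P34 versus P32 and P38 versus P34 (0.66%, 0.242% and 0.199% of all genes). With the ciliary body score 0 passed in each, as did 0% of all genes. Unadjusted p gave 15, 16 and 10 in these 3 comparisons (6.27%, 14.4% and 3.81% of all genes), and 5, 4, 5 and 4 at P32, P38 and cKO versus P30 and P38 versus P32 (2.9%, 3.46%, 1.88% and 11.9%). DESeq2 gave 13 at P34 versus P32, 7 at P38 versus P34, 2 at P38 versus P32, 1 at P38 versus P30 and 8 at P34 versus P30 (8.65%, 0.774%, 6.05%, 0.242% and 1.98%), and no filter gave 8, 5 and 2 in the first 3 of these (1.93%, 0.338% and 0.591%). The fit of both conditions alone gave 1 at P34 versus P32 (0.0591% of all genes), and the mean of the 3 age contrasts gave 1 for cKO versus P30 (0.36%). Leaving out 1 mouse gave 3 to 7 at P34 versus P30 (0.226% to 1.12% of all genes, 3 without P30 mouse 3 or any 1 of the P34 mice), 1 to 19 at P34 versus P32 (0.0736% to 14.3%, 19 and 14.3% without P32 mouse 6, 1 or 2 without a P34 mouse), 1 to 4 at P38 versus P34 (0.0421% to 0.304%, 1 without P34 mouse 7 or 8 or P38 mouse 11), 0 to 5 at P38 versus P32 (5 without P32 mouse 6, 10.2%), and 0 to 1 at P38 and cKO versus P30 (1 without P30 mouse 1, 0.0682% and 0.252%). These counts were added after seeing the data.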
